A study of Mus musculus with 94 samples.

Results

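The Notch pathway was described in single cells from the adipose tissue around the mouse aorta, through its ligands (*Dll4*, *Jag1*), its receptors (*Notch1* to *Notch4*), its DNA-binding factor (*Rbpj*) and its targets (*Hes1*, *Hey1*, *Heyl*). The genes were taken by name from the deposited table, and 9 of the 10 listed genes had a row among 16069 genes. *Heyl* was not analysed here. The cells were sorted as CD144-/CD45-/CD29+/Sca1+ from the stromal vascular fraction of 8-week mice whose strain is labelled c57/bl, and were not cultured. Each cell gave its own SMARTseq v4 library, which covers whole transcripts. The series describes 94 cells of this single condition, of which 85 were analysed. The labels name no animal of origin, so the cells together count as 1 sample, no test between cells was made, and intervals cover counting error only. Cells were divided by *Dcn*, a small proteoglycan of fibroblasts, into 58 stromal cells with a normalized read count of at least 1000 and 27 other cells.

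Notch receptors are membrane proteins that bind Delta-like or Jagged ligands on a neighboring cell. Binding leads to cleavage of the receptor by an ADAM protease and then by γ-secretase, and the freed intracellular domain joins RBPJ on DNA, where it replaces co-repressors with co-activators and turns on genes of the Hes and Hey families. In vessels, DLL4 and NOTCH4 are best known from endothelium, *Hey1* from arterial endothelium, JAG1 from endothelium and smooth muscle, and NOTCH3 from mural cells.

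*Dcn* set the 2 kinds of cells, so its ranges in them could not overlap. It ranged from 6521 to 365531 in stromal cells and from 5.17 to 269 in other cells. The lowest stromal cell stood apart, since its value of 6521 rested on 69 recovered reads, its total was the lowest of all cells at 1146945 reads and it held none of the Notch genes. At least 4 of 7 further stromal markers reached a value of 100 in 54 of 58 stromal cells, and none did in the other cells. At least 3 of 15 endothelial markers reached 100 in 24 of 27 other cells (median 5 markers, range 0 to 11) and in 1 of 58 stromal cells, which makes the other cells mostly endothelial-like, although in 3 of them none of these markers reached 100. *Cdh5*, which encodes the CD144 protein that the sort was set to exclude, was above 0 in 23 of 27 other cells and in 7 of 58 stromal cells (12.1%). It held at least 100 reads in 20 other cells and in 0 stromal cells. Recovered reads, which are the deposited values divided by the scaling factor found for each gene group and cell, totalled between 1146945 and 4776510 per cell. Their medians were 2963854 in stromal cells and 2714449 in other cells. The number of genes above 0 differed more, with a median of 2813 (850 to 4148) in stromal cells and 1416 (285 to 2278) in other cells. Of the 11478 genes detected in 3 or more cells, 83.6% had a higher mean in stromal cells, and the median difference in mean log2(value + 1), other minus stromal cells, was -0.64. The part of these values in the differences below was not tested.

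The promoters of the genes on which the results turn are shown as the 250 bases before the RefSeq start site in the GRCm38.p6 assembly, written in the direction of the gene. The table of promoters matched 7 of the 9 genes and has no entry for *Hes1* and *Hey1*. The deposited values were made on mm9, so these positions belong to the reference and not to the reads. *Dll4* lies at chr2:119325534-119325783 on the plus strand and *Jag1* at chr2:137116521-137116770 on the minus strand. They are shown because *Dll4* was found mainly in other cells and *Jag1* in stromal cells only. *Notch2* lies at chr3:98013288-98013537 and *Notch4* at chr17:34564045-34564294, both on the plus strand. These receptors are shown because *Notch2* was found mainly in stromal cells and *Notch4* mainly in other cells. *Rbpj* lies at chr5:53590096-53590345 on the plus strand and is the factor that all receptors share. A second start of *Rbpj* has the window chr5:53590236-53590485, which overlaps the first and is not shown. Capitals mark matches, on either strand, to an RBPJ core (TGGGAA), an ETS core (CGGAAG) or a GC box (GGGCGG).
Dll4: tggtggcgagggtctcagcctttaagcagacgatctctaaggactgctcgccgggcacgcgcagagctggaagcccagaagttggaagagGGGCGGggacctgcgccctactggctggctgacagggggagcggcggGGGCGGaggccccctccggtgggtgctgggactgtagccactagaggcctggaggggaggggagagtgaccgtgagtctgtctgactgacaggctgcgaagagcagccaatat
Jag1: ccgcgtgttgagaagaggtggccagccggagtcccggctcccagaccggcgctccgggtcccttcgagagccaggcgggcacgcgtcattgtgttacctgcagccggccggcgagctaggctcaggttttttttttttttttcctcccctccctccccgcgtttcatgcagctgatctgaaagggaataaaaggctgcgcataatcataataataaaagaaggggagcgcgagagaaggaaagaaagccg
Notch2: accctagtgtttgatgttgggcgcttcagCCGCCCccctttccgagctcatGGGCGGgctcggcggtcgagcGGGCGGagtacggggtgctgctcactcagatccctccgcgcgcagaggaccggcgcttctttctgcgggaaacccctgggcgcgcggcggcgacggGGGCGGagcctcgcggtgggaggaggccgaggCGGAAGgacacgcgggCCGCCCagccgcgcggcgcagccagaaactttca
Notch4: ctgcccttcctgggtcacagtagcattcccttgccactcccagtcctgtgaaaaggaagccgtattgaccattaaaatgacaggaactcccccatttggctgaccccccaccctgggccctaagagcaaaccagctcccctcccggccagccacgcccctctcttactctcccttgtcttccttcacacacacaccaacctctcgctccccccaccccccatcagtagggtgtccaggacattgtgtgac
Rbpj: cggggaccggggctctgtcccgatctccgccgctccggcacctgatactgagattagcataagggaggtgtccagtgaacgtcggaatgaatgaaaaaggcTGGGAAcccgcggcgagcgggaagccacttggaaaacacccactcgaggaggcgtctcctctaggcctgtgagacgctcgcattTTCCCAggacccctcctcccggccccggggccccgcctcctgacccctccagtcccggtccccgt

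*Dll4* held GC boxes beginning 160 and 113 bases before the start, *Notch2* held 5 GC boxes and an ETS core 50 bases before the start, and *Jag1* and *Notch4* held none of the 3 motifs in this window. *Rbpj* carried the RBPJ core itself, 149 bases before the start on the printed strand and 65 bases before it on the opposite strand. The window of its second start held 1 RBPJ core. No 2 of these matches overlapped. Of all 32851 promoter windows of this length, 21.6% held the RBPJ core, 13.6% the ETS core and 32.7% the GC box. Among the 9200 windows of genes above 0 in at least 3 cells, the shares were 19.6%, 25.04% and 59.04%. A match describes the letters of the window and not a site in use.

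No cell held both ligands, but *Dll4* was above 0 in 1 stromal cell and *Jag1* in 0 of 27 other cells. Almost no overlap was thus possible, and nothing is read from its absence. *Dll4*, the Delta-like ligand of sprouting and arterial endothelium, was above 0 in 5 of 27 other cells (18.5%, interval 6.30% to 38.1%), which held 198, 270, 5165, 9484 and 9972 reads. Among stromal cells it was above 0 in 1 of 58 (1.72%, interval 0.0436% to 9.24%), with 4 reads. The single stromal value therefore lay far under every value in the other cells. Mean log2(value + 1) of *Dll4* was 2.02 ± 4.46 (SD, n = 27) in other cells and 0.04 ± 0.30 (SD, n = 58) in stromal cells.

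*Jag1*, the Jagged ligand, divided in the opposite direction. It was above 0 in 7 of 58 stromal cells (12.1%, interval 4.99% to 23.3%), which held 109, 125, 271, 539, 993, 1141 and 1185 reads. Of the other cells, 0 of 27 held *Jag1*, which allows a share of up to 11.1%, so the intervals of the 2 shares overlap. The cells with *Jag1* were among the stromal cells with more genes, with a median of 3575 genes above 0 compared with 2812 in stromal cells without it. The difference in mean log2(value + 1) of *Jag1* was -1.06, other minus stromal cells, and it was -0.66 when 10 instead of 1 was added before the logarithm.

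Among the receptors, *Notch2* was the one held by most stromal cells. It was above 0 in 16 of 58 (27.6%, interval 16.7% to 40.9%), with 2 to 3597 reads and a median of 81.5. Low values made up much of this share, since 15 of these cells held at least 10 reads and 7 held at least 100. In other cells, *Notch2* was above 0 in 1 of 27 (3.70%, interval 0.0937% to 18.97%), with 3 reads. Mean log2(value + 1) was 1.84 ± 3.33 (SD, n = 58) in stromal cells and 0.06 ± 0.31 (SD, n = 27) in other cells.

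*Notch4*, the receptor best known from endothelium, was rare and high where present. In other cells it was above 0 in 4 of 27 (14.8%, interval 4.19% to 33.7%), with 1942, 2408, 3240 and 5075 reads. Its only stromal cell held 3 reads. The 4 other cells with *Notch4* had between 4 and 11 of the 15 endothelial markers at a value of 100, and the mean log2(value + 1) of the gene was 1.71 ± 4.18 (SD, n = 27) in other cells and 0.03 ± 0.26 (SD, n = 58) in stromal cells. *Notch1*, which is broadly expressed and acts in arterial specification, was above 0 in 3 of 27 other cells (11.1%, interval 2.35% to 29.2%), with 45, 1444 and 1847 reads, and in 1 of 58 stromal cells with 196 reads. The stromal value of *Notch1* fell inside the range of the other cells, and no ratio is given for counts this small. *Notch3*, the receptor of mural cells, was found in 1 stromal cell with 84 reads and in 0 of 27 other cells. The 8 mural markers with a row went both ways. *Rgs5* and *Mcam* were each above 0 in 0 of 58 stromal and 3 of 27 other cells. The other 6 were above 0 in stromal cells and in 0 of 27 other cells, namely *Pdgfrb*, which fibroblasts also express, in 19, *Abcc9* in 10, *Ndufa4l2* in 6, *Cspg4* in 2, and *Kcnj8* and *Des* in 1 each.

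**Figure D1:**
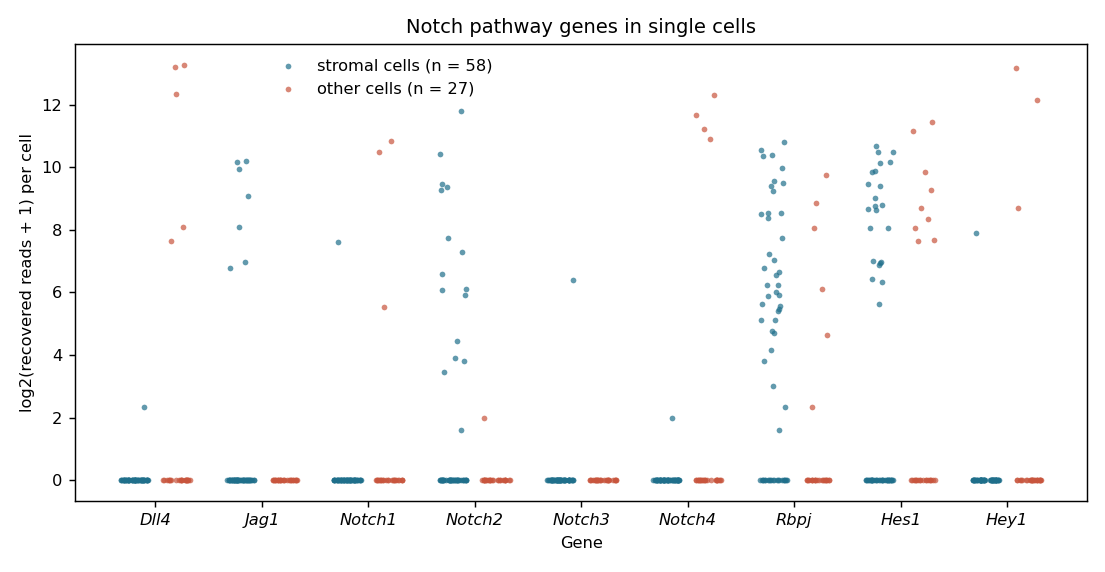
Each point is 1 cell, with log2(recovered reads + 1) on the vertical axis and the 9 Notch genes on the horizontal axis, in stromal cells (blue, n = 58) and other cells (red, n = 27). Points at 0 are cells without a read of the gene, and *Dll4* and *Notch4* reached 9972 and 5075 reads in other cells while their only stromal cells held 4 and 3 reads.

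*Rbpj*, which encodes the factor that carries the receptor's intracellular domain to DNA, was the most widely held of the genes. It was above 0 in 37 of 58 stromal cells (63.8%, interval 50.1% to 76.01%), with 2 to 1798 reads and a median of 94, and 17 of these cells held at least 100 reads. In other cells it was above 0 in 6 of 27 (22.2%, interval 8.62% to 42.3%), with 4, 24, 68, 268, 463 and 858 reads. The 2 intervals of the shares do not overlap, whereas the ranges of the reads in cells that held the gene do. Mean log2(value + 1) was 4.30 ± 3.80 (SD, n = 58) in stromal cells and 1.51 ± 3.14 (SD, n = 27) in other cells. The reads of *Rbpj* are uncertain, since the genome holds a pseudogene copy of it, listed as *Rbpsuh-rs3*, that can share its reads. The copy was above 0 in 18 stromal and 5 other cells, and every one of them also held *Rbpj*. In stromal cells, *Rbpj* had a median of 347.5 reads where the copy was present and 48 where it was not, while the copy itself had a median of 11 reads and a highest value of 142.

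*Hes1*, the repressor that is the best known target of the pathway, was held by both kinds of cells at like shares. It was above 0 in 23 of 58 stromal cells (39.7%, interval 27.05% to 53.4%), with 49 to 1637 reads and a median of 431. In other cells it was above 0 in 9 of 27 (33.3%, interval 16.5% to 53.96%), with 199 to 2801 reads and a median of 419. Neither the share nor the reads per positive cell separated the 2 kinds of cells, and the intervals overlap over most of their length. The difference in mean log2(value + 1), other minus stromal cells, was -0.35, and it was 0.03 when the 3 other cells with fewer than 3 endothelial markers were left out, so *Hes1* has no direction here. Stromal cells with *Hes1* had a median of 3121 genes above 0, compared with 2589 in those without it. *Hes1* also responds to signals other than Notch. Its correlation with 19 genes of the response to tissue dissociation was taken across stromal cells (Pearson r, n = 58 cells of the same sample). This correlation ranged from -0.17 for *Atf3* to 0.22 for *Ier2*. The median was 0.06, beside 0.08 over all 5382 genes compared.

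*Hey1*, the target of arterial endothelium, was rare. It was above 0 in 3 of 27 other cells (11.1%), with 417, 4523 and 9343 reads, and in 1 of 58 stromal cells (1.72%), with 237 reads. All 3 values in other cells lay above the stromal one. Mean log2(value + 1) of *Hey1* was 1.26 ± 3.69 (SD, n = 27) in other cells and 0.14 ± 1.04 (SD, n = 58) in stromal cells. The difference was 1.12, or 0.81 when 10 was added instead of 1, and it rests on 3 cells.

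**Figure D2:**
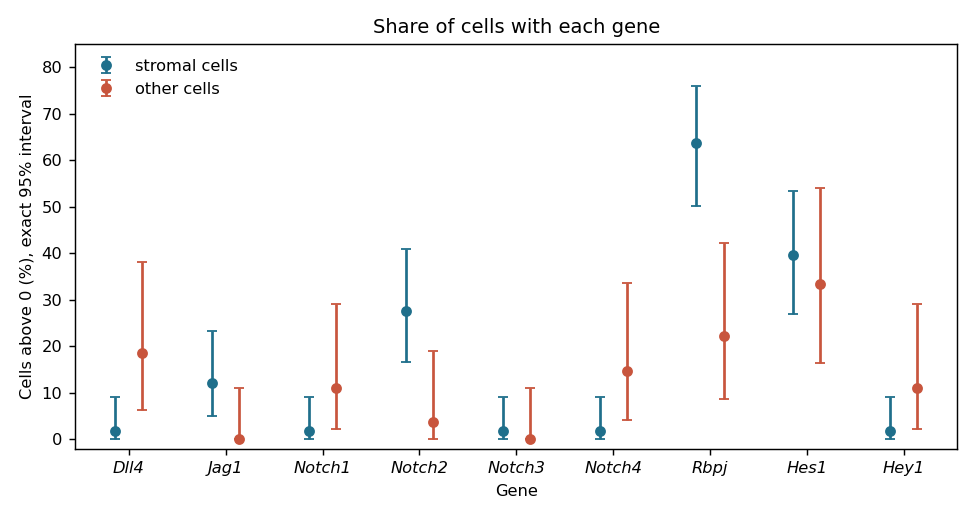
The share of cells with a value above 0, in percent, is plotted for the 9 Notch genes in stromal cells (blue, n = 58) and other cells (red, n = 27). Bars are exact 95% intervals for counting error, and for a share of 0 the upper bar is the limit set by 3 cells, and only for *Rbpj* do the bars of the 2 kinds of cells stand clear of each other.

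By the rule that a gene counts as higher where its mean log2(value + 1) differs by at least 1, 3 of the 8 Notch genes above 0 in at least 3 cells were higher in other cells, namely *Dll4*, *Notch4* and *Hey1*. Each of the 3 was above 0 in 1 stromal cell and so passed the filter of 3 cells only through the other cells, where it was high. Of all 11478 genes, 2.84% were higher in other cells by this rule, and nothing is read from the count beside it. Among genes above 0 in at least 10 cells, 3 Notch genes remain and 0 were higher in other cells. Another 3 of 8 were higher in stromal cells, namely *Jag1*, *Notch2* and *Rbpj*, compared with 35.6% of all genes, so this second count is close to the background. The second rule was a share of cells at least 2 times higher in 1 kind of cell. For it, a share of 0 was set to that of 3 cells. Genes above 0 in at most 3 cells of each kind had no ratio. By this rule, *Dll4* and *Notch4* were higher in other cells, where 2.57% of all genes were, and for the same reason nothing is read from this count. *Notch2* and *Rbpj* were higher in stromal cells, as were 37.9% of all genes. The median difference of the 8 genes was 0.26 and that of all genes -0.64. Nothing is read from this median either, since *Notch1*, *Notch4*, *Dll4* and *Hey1* each passed the filter only through the other cells. *Notch3* was above 0 in 1 cell and entered none of these counts.

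*Notch1*, *Notch4*, *Dll4* and *Hey1* were followed together, a set chosen after their values were seen. They are the Notch genes with a higher mean in other cells. Nothing is therefore read from how the set divided between the 2 kinds of cells. At least 1 of the 4 genes was above 0 in 12 of 27 other cells, and all 12 held at least 10 reads of it. All 12 had at least 3 endothelial markers at a value of 100, as did 24 of all 27 other cells. Among stromal cells, 4 of 58 held any of the genes, 2 of them with at least 10 reads, and none of the 4 had 3 endothelial markers at 100. The genes were spread over different cells, since 3 of the 12 other cells held more than 1 of them and 1 cell held *Dll4* together with *Notch4*. Arterial and venous markers were sparse in other cells as well. *Sema3g*, an arterial gene, was above 0 in 5 other cells and 1 stromal cell. *Efnb2* was above 0 in 2 cells of each kind, and *Gja4* and *Bmx* in 1 other cell each. Of the venous genes, *Ephb4* was above 0 in 4 other and 2 stromal cells, and *Vwf* in 4 and 3. *Nr2f2* was above 0 in 2 other and 12 stromal cells, and *Ackr1* in 2 and 10.

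A complete set of pathway parts in 1 cell was uncommon. None of the 9 genes was found in 9 of 58 stromal cells (15.5%) and in 9 of 27 other cells (33.3%). At least 2 were found in 30 stromal cells (51.7%) and 9 other cells (33.3%), and at least 4 in 1 cell of each kind. A receptor, *Rbpj* and a target were above 0 together in 6 stromal cells and in 1 other cell.

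A receptor and a target were found together in 8 stromal and 3 other cells. A target was found without any receptor in 15 stromal and 9 other cells, and a receptor without a target in 9 stromal and 3 other cells. A receptor and a ligand shared a cell in 1 stromal and 1 other cell. Each of these counts depends on how many transcripts a library caught, and a gene at 0 reads may have been missed. *Hes1* was above 0 in 8 of the 16 stromal cells with *Notch2* (interval 24.7% to 75.3%) and in 15 of the 42 without it (35.7%, interval 21.6% to 51.97%). *Rbpj* was above 0 in 11 of the 16 (68.8%, interval 41.3% to 88.98%) and in 26 of the 42 (61.9%, interval 45.6% to 76.4%). *Hes1* was above 0 in 14 of 37 stromal cells with *Rbpj* (37.8%) and in 9 of 21 without it (42.9%). For all 3 pairs the intervals overlap widely. They cover counting error only and a gene at 0 may have been missed, so they cannot show or exclude a dependence between the genes.

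**Figure D3:**
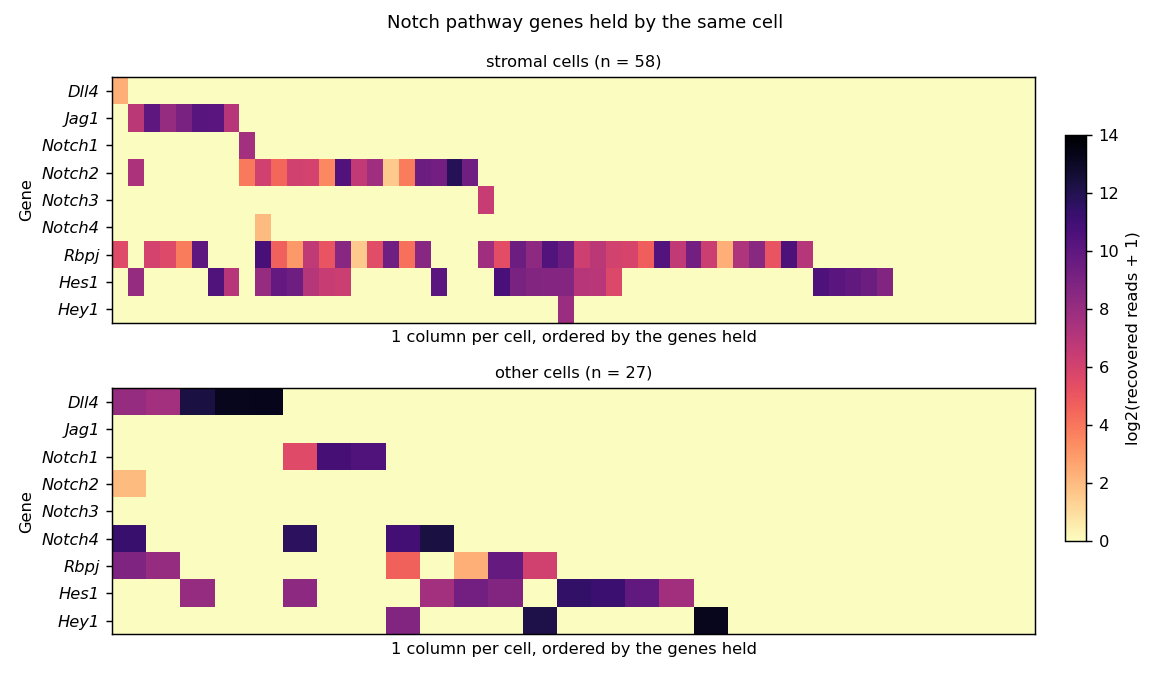
Each column is 1 cell and each row 1 Notch gene, with stromal cells (n = 58) above and other cells (n = 27) below, and the color gives log2(recovered reads + 1) from 0 (pale) to 14 (dark). Cells are ordered by the genes they hold. The 7 stromal cells with *Jag1*, most of the 16 with *Notch2* and the 5 other cells with *Dll4* stand as blocks. No cell holds both ligands, where only the 1 stromal cell with *Dll4* could have.

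Levels of different genes were compared per kilobase of the longest GENCODE M21 transcript and scaled to the recovered reads of each cell (RPKM). In stromal cells the mean level was highest for *Hes1* at 55.8 ± 99.8 RPKM, followed by *Rbpj* at 13.04 ± 24.4, *Notch2* at 5.11 ± 21.7 and *Jag1* at 3.86 ± 13.5 (SD, n = 58). The remaining genes had means of at most 0.577 RPKM. In other cells the order was *Dll4* at 98.1 ± 291 RPKM, *Hes1* at 74.99 ± 172, *Hey1* at 68.6 ± 247, *Notch4* at 28.3 ± 76.5, *Notch1* at 6.18 ± 23.5 and *Rbpj* at 4.82 ± 14.6 (SD, n = 27), with *Notch2* at 0.00472 and *Jag1* and *Notch3* at 0. Every SD of a gene that was found exceeded its mean, so neighbors in either order do not differ beyond their spread. The order by share of cells was another one, with *Rbpj* before *Hes1* in stromal cells and *Hes1* before *Rbpj* and *Dll4* in other cells. *Dll4* and *Hey1* reached high levels in few cells.

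The genes most like each Notch gene were sought among 5382 genes above 0 in at least 10 stromal cells, by Pearson r of log2(value + 1) over the 58 stromal cells. For *Rbpj* these were its copy *Rbpsuh-rs3* (r = 0.61), *Mnat1*, a subunit of the CDK-activating kinase (r = 0.46), and *Fgf18*, a growth factor (r = 0.45). For *Hes1* they were *Gm5776*, an annotated pseudogene (r = 0.56), *Commd1* (r = 0.55) and *Pqbp1* (r = 0.50), and for *Notch2* they were *Gm8865* (r = 0.40), *Ubr1*, a ubiquitin ligase (r = 0.38), and *Ppp3cb*, a calcineurin subunit (r = 0.37). The Notch genes were not among each other's likeliest genes, with r of 0.09 for *Notch2* and *Hes1*, -0.05 for *Notch2* and *Rbpj* and -0.05 for *Hes1* and *Rbpj*. Highest values out of 5382 are large by selection, and the median r over all genes was -0.00 for *Notch2*, 0.08 for *Hes1* and 0.03 for *Rbpj*. In other cells no Notch gene reached 10 cells, so none was compared.

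The other parts of the pathway were counted by lists of known components, and most had lower means in other cells, as had most of the genes measured. Of 4 further ligands with a row, none was above 0 in 3 cells. *Dner* was above 0 in 2 stromal cells, *Dll1* in 1 cell of each kind, *Dlk1* in 1 stromal cell and *Jag2* in 1 other cell.

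Among 9 tested genes of ligand uptake and receptor glycosylation, 1 was higher in other cells and 5 in stromal cells by the log2 rule (median difference -1.01), compared with 2.84% and 35.6% of all genes. *Mib1*, the ubiquitin ligase that starts ligand uptake, was above 0 in 24 stromal and 4 other cells, and *Gxylt2*, a xylosyltransferase, in 21 and 1. *Pofut1*, which puts O-fucose on the receptor, was above 0 in 14 and 0. *Mfng*, a Fringe enzyme that extends this fucose and alters the choice of ligand, was the gene in the opposite direction. It was above 0 in 3 other and 0 stromal cells. *Mfng* thus passed the filter of 3 cells only through the other cells, and nothing is read from its call.

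Of the receptor cleavage genes, 4 of 9 were higher in stromal cells and none in other cells (median difference -0.89), which is near the 35.6% of all genes that were higher in stromal cells. Among these were *Adam10*, the sheddase, above 0 in 21 stromal and 5 other cells, and the γ-secretase subunits *Psenen*, in 25 and 3 cells, and *Ncstn*, in 17 and 0.

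In the nucleus, 4 of 8 co-activators (median difference -1.43) and 9 of 16 co-repressors (median difference -1.31) were higher in stromal cells and none in other cells. The acetyltransferase *Ep300* was above 0 in 25 stromal cells and 1 other cell, and *Snw1*, which links RBPJ to either complex, in 15 and 1. Of the co-repressors, *Ncor1* was above 0 in 37 and 7 cells, *Aes*, a short Groucho protein, in 33 and 4, and *Fhl1* in 29 and 4. Over all genes, 35.6% were higher in stromal cells by the same rule.

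Negative regulators and further targets were less uniform. *Nedd4*, a ubiquitin ligase with many substrates, had the largest difference of any gene on these lists, above 0 in 57 of 58 stromal and 10 of 27 other cells (log2 difference -7.03). Of the 10 negative regulators tested, 4 were higher in stromal cells and 1 in other cells, beside 35.6% and 2.84% of all genes. That 1 was *Nrarp*, a target of the pathway that in turn limits it, above 0 in 4 other and 2 stromal cells (log2 difference 1.397). *Nrarp* passed the filter of 3 cells only through the other cells, and nothing is read from its call. Among the 6 further targets tested, *Nrarp* and *Cdkn1a*, a cell cycle inhibitor above 0 in 17 other and 31 stromal cells (log2 difference 2.51), were higher in other cells. *Myc* was higher in stromal cells, above 0 in 25 of 58 and in 0 of 27 other cells (log2 difference -3.65). *Efnb2*, an arterial gene, was above 0 in 2 cells of each kind, and *Ccnd1* in 8 stromal and 3 other cells. *Cdkn1a* and *Myc* are targets of many pathways, so their values do not speak for Notch alone.

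**Figure D4:**
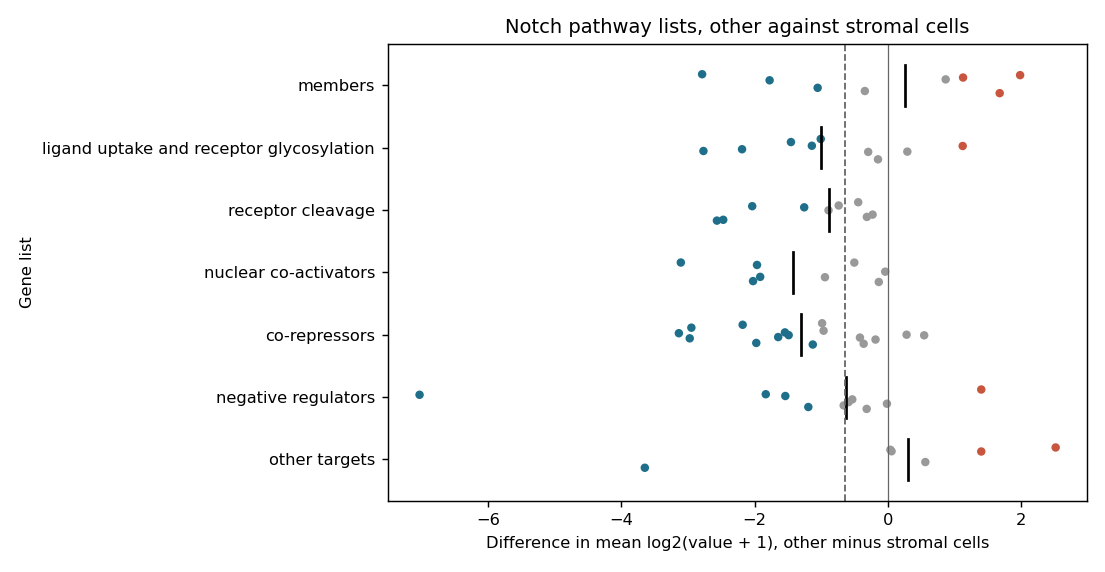
Each point is 1 gene, placed by its difference in mean log2(value + 1), other minus stromal cells, for the 8 Notch genes (members) and 6 lists of pathway parts. Red and blue mark differences of at least 1 in either direction, black bars the median of each list, and the dashed line the median of all 11478 genes at -0.64, to the left of which lie the medians of the uptake, cleavage, co-activator and co-repressor lists.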

How the data were processed

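Single cells of 1 condition were measured by full-length RNA-seq (SMARTseq v4), with 1 library per cell. The submitters' processing notes name HISAT2 2.0.5, SAMtools 1.4, StringTie 1.3.3 and mm9. The authors deposited a signal, namely counts of reads after normalization, as 1 table with 85 cells and 16069 genes above 0 in at least 1 cell. For the normalization, the paper names the default scaling of scater. The scaling found in the values differed between groups of genes within a cell, as described below. Whether the named step produced it was not tested. The counting program is not given in the sources used here.

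Means are of log2(value + 1) without further scaling. Recovered reads were used for depth and reads per cell. The 9942 genes above 0 in fewer than 10 cells were taken as whole numbers without a check. Of the other 6127, 723 held whole numbers in every cell. The rest fell into 13 groups of genes, each multiplied in each cell by a factor of its own (0.0157 to 94.5). After division by these factors, 2 of 165973 values above 0 in genes of at least 10 cells were not whole within a relative tolerance of 4e-09. *Notch2* and *Rbpj* were scaled in this way, and the other Notch genes hold whole numbers as deposited. The recovery was devised after the values had been seen, and it was tested on simulated data. Detection was a value above 0. Shares have exact Clopper-Pearson 95% intervals, and where no cell held a gene the limit is 3 cells of all. Libraries hold no molecular identifiers. Depth was 1146945 to 4776510 recovered reads per cell. With 1 sample there was no test between cells, and genes were called by fixed sizes of difference (1 on the log2 scale, or 2 times the share of cells). Doublets were not called.

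The genes, lists and cell classes were chosen with earlier results of these data known. The genes named were all Notch genes with a row, *Dcn*, the genes of the sort gate, the 3 most similar genes of each Notch gene above 0 in at least 10 cells of a class, up to 3 genes of each list with the largest difference in share in each direction, and markers beside a result. A gene that this rule takes from the lists is not reported here. Others were named where a count was small or a value stood out. Of the sort gate, *Ly6a* was above 0 in 52 stromal and 21 other cells and *Itgb1* in 35 and 12. Alternatives were other cell classes, detection levels, filters, scalings, pseudocounts and thinning to 1146945 reads. Promoters are from RefSeq. Python 3.11.15, numpy 2.4.6, pandas 2.3.3, scipy 1.17.1 and matplotlib 3.10.9 were used.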

Additional observations from a re-analysis of the deposited data

How the results depend on the processing

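The class of a cell, the level of detection and the scaling were varied. *Dll4*, *Notch4*, *Notch2* and *Rbpj* kept their direction and stayed past a log2 difference of 1 in every alternative that tested them. The count of Notch genes higher in other cells by the log2 rule was 0 among genes above 0 in at least 10 cells, since only 3 Notch genes are then tested. By the share rule it was 0 under that filter and 1 with *Dcn* of at least 100 as the threshold for stromal cells. The count higher in stromal cells by the share rule was 1 with detection at a value of at least 100, where *Notch2* was found in 12.1% and *Rbpj* in 27.6% of stromal cells. The difference of *Hes1*, other minus stromal cells, changed its sign to 0.0327 with only other cells of at least 3 endothelial markers. *Hey1* was at 0.81 to 0.996 and thus under a difference of 1 in 5 alternatives, *Jag1* between -0.87 and -0.66 in 4, and *Notch1* was at 1.09 without cells under 1000 genes. The cause was not tested. Thinning every cell to 1146945 reads moved 1 share, that of *Rbpj* in stromal cells, to 62.1%.

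No paired analysis was possible because all cells belong to 1 group and no animal is named. Leaving out replicates was not possible for the same reason. Most Notch genes were held by fewer than 10 cells, and their shares have wide intervals.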
